A study of Mus musculus with 6 samples.

Results

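Described here are 9 genes of the complement system other than C1q, read by symbol from the count tables of 6 mouse tumours: *C1ra*, *C4b*, *C3*, *Cfb*, *Serping1*, *Cd55*, *Cd59a*, *C3ar1* and *C5ar1*. All 9 were found among the 23183 gene symbols, and all 9 were among the 12517 genes with enough counts to be tested. The tumours were grown from UV2237M, a mouse fibrosarcoma line labelled wild type, and 3 libraries belong to each of 2 groups. The treated tumours received gold nanoclusters (GNC), small clusters of gold atoms studied for heating tumours with light, on days 1 and 7 and were irradiated with near-infrared (NIR) light. The untreated tumours received neither, so GNC and NIR cannot be told apart in this design. The labels name no host strain, age or time of harvest and do not say whether each tumour came from its own mouse, so p-values measure the spread between these samples only.

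Complement is a cascade of plasma and tissue proteins that marks cells and particles for removal. The classical route starts with C1q and the protease C1r, which cuts C1s, which in turn cuts C4 and C2; the alternative route uses C3 and factor B; both meet at C3, whose cleavage gives the opsonin C3b and the peptide C3a, and go on to C5 and the pore-forming terminal proteins. Most plasma complement is made in the liver, but fibroblasts, macrophages and tumour cells also make components, and host cells carry inhibitors such as CD55 and CD59 on their surface.

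Total counts lay between 4680295 and 8019294 per library. Untreated 2 stood apart, with a mean distance to the other libraries of 1.25 on the log2 CPM scale (CPM are counts scaled by library size), against 0.634 to 0.755 for the other 5 libraries, and transcripts rich in G and C were low in it. Fibroblast markers were abundant in every library, with a summed level of 18864 to 24315 CPM in treated and 21174 to 26314 CPM in untreated tumours. Hepatocyte markers were at or near 0, with at most 0.124 CPM in treated and 0.245 CPM in untreated tumours over all 6 markers.

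Of the 9 genes, 8 had a fitted log2 fold change above 0, that is, a higher level in treated tumours, but none was called. The largest were those of *Cd55*, *Serping1*, *C3* and *C4b*, at 1.62, 1.62, 1.55 and 1.51. *Cfb* and both receptor genes lay within 0.36 of 0. The median over the 9 genes was 1.03, beside 0.00 over all tested genes, and 49.9% of all tested genes had a fold change above 0. The 9 genes were chosen with earlier results of these data known. Of the 17 other complement genes tested, C1q left out, 8 were higher and 9 lower in treated tumours, with a median of -0.02. The treated tumours did not act as one group: treated 2 and 3 had the highest or second highest level of most of these genes, while treated 1 lay within or below the range of the untreated tumours for all 9. In no gene did the treated values stand clear of the untreated ones, which they did upwards in 10.6% and downwards in 10.2% of all tested genes. In tumour pieces such as these, more cells of a type and more RNA per cell cannot be told apart.

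With edgeR's quasi-likelihood test and Benjamini-Hochberg adjustment over all tested genes, 0 of the 9 genes passed an adjusted p of 0.05, as did 0% of all tested genes. DESeq2, run as an alternative, called 0 of the 9 and 0.368% of the genes it adjusted. At an unadjusted p under 0.05, edgeR gave 2 of the 9 genes, *Serping1* and *C4b*, both higher in treated tumours, where 3.32% of all tested genes were higher and 4.85% lower at that level. The count of 2 became 0 without treated 2 or without treated 3, and 4 without treated 1. It became 1 without untreated 1 or 2, and 3 without untreated 3. Over all tested genes the count moved as well, from 1023 to 574, 854 and 313 without treated 1, 2 and 3. Without untreated 1, 2 and 3 it was 812, 2362 and 1686. Leaving out a library also makes a group smaller, and the cause of these changes was not tested.

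The classical pathway was represented by a protease of the first complex and by C4. *C1ra* (mm10, as all gene positions here, chromosome 6, 124512405 to 124523443, plus strand) codes for C1r, the protease that C1q binding sets off. Its level was 6.26, 21.9 and 18.6 CPM in treated 1, 2 and 3, against 9.68, 6.92 and 11.8 CPM in untreated 1, 2 and 3. Treated 2 and 3 were above all untreated tumours and treated 1 was below them all. The fitted log2 fold change was 0.72 ± 0.47 (SE), with an adjusted p of 0.632 in edgeR's test, and it was 1.09 without treated 1 and 0.40 without treated 2.

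*C4b* (chromosome 17, 34728380 to 34743882, minus strand) codes for complement C4, whose fragment attaches to targets and takes part in the enzyme that cuts C3. It had 14.1, 70.1 and 45.5 CPM in treated 1, 2 and 3, against 11.6, 9.82 and 23.8 CPM in untreated 1, 2 and 3. The 2 highest values were again treated 2 and 3, and treated 1 lay below untreated 3. The log2 fold change was 1.51 ± 0.60 (SE), with an unadjusted p of 0.0396 and an adjusted p of 0.592 in edgeR's test, and it was 0.98 without treated 2 and 2.01 without untreated 3. Both genes have a close copy nearby in the genome, and reads can be split between copies, so their levels are uncertain. Of all stretches of 50 bases in the longest *C4b* transcript, 35.2% also occur in *C4a*, and of those of *C1ra*, 48.0% occur in *C1rb*. *C4a* had 36, 50 and 50 counts (6.44, 6.80 and 6.22 CPM) in treated 1, 2 and 3, against 36, 4 and 36 counts (5.45, 0.893 and 4.42 CPM) in untreated 1, 2 and 3. Its treated values stood above the untreated ones, as in 10.6% of all tested genes. The log2 fold change of *C4a* was 0.81, with an unadjusted p of 0.179 in edgeR's test. *C4b* had more counts in each library, with 79, 515 and 366 counts in treated 1, 2 and 3, against 77, 44 and 194 counts in untreated 1, 2 and 3. Adding the copies gave 49.7 ± 28.2 CPM in treated and 18.7 ± 8.86 CPM in untreated tumours (SD, n = 3 each), and the groups overlapped, as for *C4b* alone. *C1rb* had at most 8 counts in a library.

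*C3* (chromosome 17, 57203970 to 57228136, minus strand) codes for the protein at which all routes of activation meet. Its promoter is shown because *C3* had the widest range of the 9 genes in CPM, beside the promoter of *C3ar1*, the gene for the receptor of its fragment C3a, which varied least on the log2 scale. Each is the 250 bases before the RefSeq start (GRCm38.p6), written 5′ to 3′, at chr17:57228137-57228386 and chr6:122856158-122856407, both on the minus strand; capitals mark matches to searched motifs.
C3: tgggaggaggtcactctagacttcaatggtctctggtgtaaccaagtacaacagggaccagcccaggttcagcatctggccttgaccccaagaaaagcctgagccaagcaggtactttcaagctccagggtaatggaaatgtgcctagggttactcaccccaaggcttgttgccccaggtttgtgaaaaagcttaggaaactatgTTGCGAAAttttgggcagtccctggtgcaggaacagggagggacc
C3ar1: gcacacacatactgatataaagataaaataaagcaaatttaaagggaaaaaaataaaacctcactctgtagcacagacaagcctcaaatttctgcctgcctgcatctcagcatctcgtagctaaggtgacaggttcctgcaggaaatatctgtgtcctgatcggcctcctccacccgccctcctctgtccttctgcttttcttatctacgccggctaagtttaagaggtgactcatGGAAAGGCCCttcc

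The capitals in *C3* match the C/EBP-like motif TTNNGCAA on the opposite strand, 45 to 38 bases before the start, and 9.56% of the 32851 promoters in the table hold that motif. The capitals in *C3ar1* match the NF-kB motif (GGG, any 2 bases, TTTCC), also on the opposite strand, 14 to 5 bases before the start, a motif held by 1.41% of promoters. Both strands were searched, also for the STAT motif TTCNNNGAA (7.02% of promoters) and the interferon motif of GAAA, any 2 bases and GAAA (2.98%), which neither window holds; the matches shown do not overlap another. Promoters were given for 6 of the 9 genes. A match describes letters only, and binding was not measured.

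*C3* had 26.3, 131 and 88.0 CPM in treated 1, 2 and 3, against 7.71, 6.92 and 68.5 CPM in untreated 1, 2 and 3. Untreated 3 lay between treated 1 and treated 3, far above both other untreated tumours, so the groups overlapped through that tumour. The highest level was 4.99 times the lowest within the treated group and 9.89 times the lowest within the untreated group. The log2 fold change was 1.55 ± 0.97 (SE), with an adjusted p of 0.623 in edgeR's test. Without untreated 3 it was 3.48, with an adjusted p of 0.19, and it lay at 1.10, 1.09 and 1.04 without untreated 1, untreated 2 and treated 2.

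*Cfb* (chromosome 17, 34856374 to 34862518, minus strand) codes for factor B, the protease of the alternative pathway. It had 10.5, 35.0 and 23.9 CPM in treated 1, 2 and 3, against 13.9, 30.6 and 21.3 CPM in untreated 1, 2 and 3. The groups covered nearly the same range, and untreated 2, low for *C3*, was second highest here. The log2 fold change was 0.09 ± 0.47 (SE), with an adjusted p of 0.955 in edgeR's test, and it was below 0 without treated 2 (-0.34) and without untreated 1 (-0.17).

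**Figure D1:**
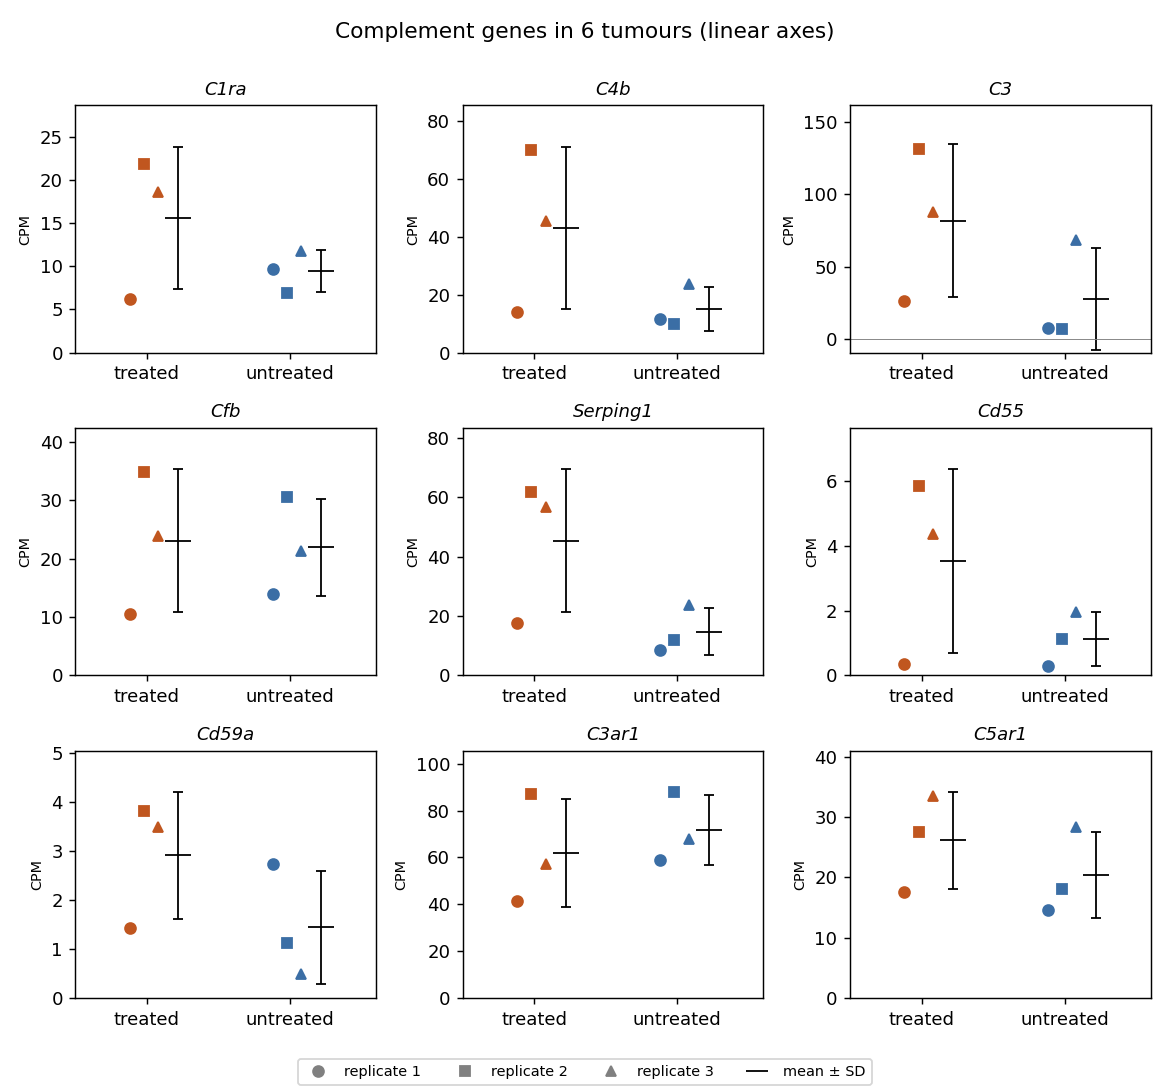
Level of each of the 9 complement genes in CPM, on linear axes, in the 3 treated tumours (left in each panel) and the 3 untreated tumours (right). Symbols are single libraries by replicate number, and bars the mean ± SD (n = 3 each; for C3 the bar reaches below 0). Treated 2 and 3 were high and treated 1 low in most panels, with C3 in untreated 3 at 68.5 CPM.

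Among the inhibitors, *Serping1* (chromosome 2, 84765387 to 84775444, minus strand) codes for C1 inhibitor, which blocks C1r and C1s. It had 17.7, 61.8 and 56.6 CPM in treated 1, 2 and 3, against 8.62, 11.8 and 23.7 CPM in untreated 1, 2 and 3. All 3 treated tumours were above the untreated mean, and only untreated 3, which exceeded treated 1, made the groups overlap. It had the smallest unadjusted p of the 9 genes, 0.0223, with a log2 fold change of 1.62 ± 0.56 (SE) and an adjusted p of 0.592 in edgeR's test. Over the fits without 1 library its fold change ranged from 1.33 to 2.16.

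*Cd55* (chromosome 1, 130439027 to 130462744, minus strand) codes for decay-accelerating factor, which breaks up the enzymes that cut C3. It was rare, with 2, 43 and 35 counts (0.358, 5.85 and 4.35 CPM) in treated 1, 2 and 3, against 2, 5 and 16 counts (0.303, 1.12 and 1.96 CPM) in untreated 1, 2 and 3. Treated 1 matched untreated 1 at 2 counts, while treated 2 and 3 exceeded every untreated tumour. The log2 fold change was 1.62 ± 0.94 (SE), with an adjusted p of 0.609 in edgeR's test. It was 1.07 without treated 2, 2.13 without treated 1 and 2.39 without untreated 3. Its copy *Cd55b* had 0 counts in every library, with 10.7% of 50-base stretches shared.

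*Cd59a* (chromosome 2, 104095801 to 104115354, plus strand) codes for CD59, which stops the terminal proteins from forming a pore. It had 8, 28 and 28 counts (1.43, 3.81 and 3.48 CPM) in treated 1, 2 and 3, against 18, 5 and 4 counts (2.72, 1.12 and 0.491 CPM) in untreated 1, 2 and 3. Untreated 3, high for *C3*, was the lowest library for this gene, and untreated 1 exceeded treated 1. The log2 fold change was 1.03 ± 0.68 (SE), with an adjusted p of 0.634 in edgeR's test, and it was 1.92 without untreated 1 and 0.57 without untreated 3. *Cd59b* had 0 counts in every library.

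The receptors of the peptides C3a and C5a, which draw and activate myeloid cells, showed small differences. *C3ar1* (chromosome 6, 122847138 to 122856161, minus strand) had 41.3, 87.1 and 57.3 CPM in treated 1, 2 and 3, against 58.8, 87.9 and 68.0 CPM in untreated 1, 2 and 3. It was the only one of the 9 genes with a lower mean in treated tumours, with overlapping ranges. Its log2 fold change was -0.21 ± 0.32 (SE), with an adjusted p of 0.816 in edgeR's test, and 0.01 without treated 1. *C5ar1* (chromosome 7, 16246743 to 16259540, minus strand) had 17.5, 27.5 and 33.4 CPM in treated 1, 2 and 3, against 14.7, 18.1 and 28.3 CPM in untreated 1, 2 and 3. In both groups the highest tumour had about the same multiple of the lowest, 1.91 in treated and 1.93 in untreated tumours, and the ranges overlapped over most of their length. The log2 fold change was 0.36 ± 0.34 (SE), with an adjusted p of 0.714 in edgeR's test, and it lay between 0.14 (without treated 3) and 0.68 (without untreated 3).

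Set side by side, the libraries followed an order that the groups did not give. Treated 2 was the highest library for 7 of the 9 genes and among the 3 highest for all 9, treated 3 was among the 3 highest for 8, and untreated 3 for 7. Treated 1 was among the 3 highest for 0 genes and the lowest for 3. These ranks were not counted over all tested genes, so the order cannot be called particular to the 9. The genes closest in pattern were *C4b* and *Serping1*, whose log2 CPM, each centred on its own mean, differed by a root mean square of 0.28 over the 6 libraries, followed by *Cfb* and *C3ar1* at 0.30. *C3* and *Cd59a* were farthest apart, at 1.67. About its own mean *C3* varied by 1.64 on the same measure, *Cd55* by 1.28, *Serping1* by 1.05 and *C4b* by 1.03, against 0.38 for *C3ar1* and 0.43 for *C5ar1*.

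**Figure D2:**
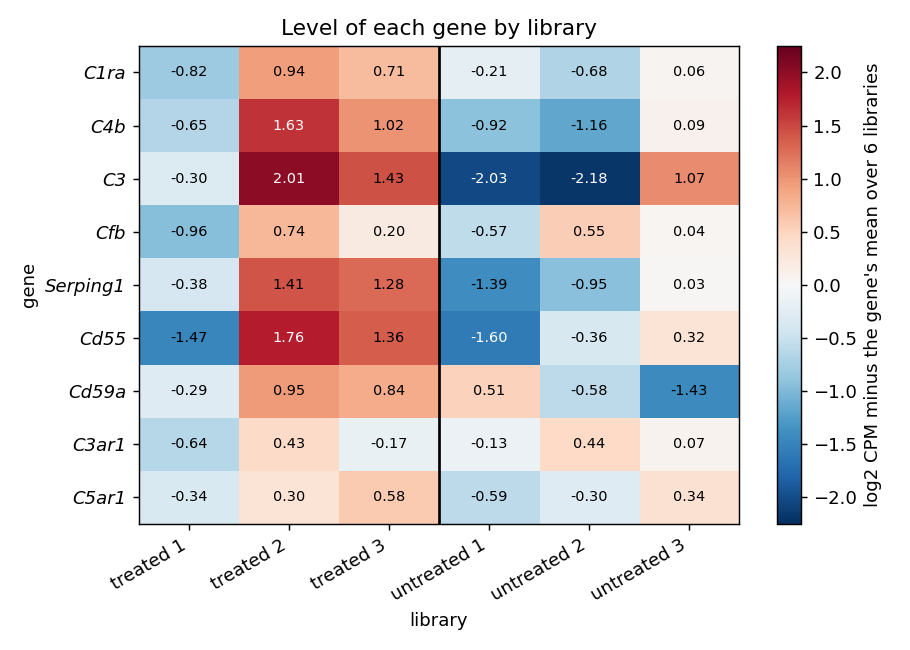
Log2 CPM of each gene (rows) in each library (columns, treated left of the line), minus the gene's own mean over the 6 libraries, red above and blue below it. C3 ranged from 2.01 in treated 2 to -2.18 in untreated 2, while C3ar1 stayed between 0.44 and -0.64.

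Untreated 2 differed from the rest along the GC content of transcripts. Its median log2 difference from the average of the 5 remaining libraries was 0.77 for the genes lowest in GC and -0.77 for the highest. *C3*, *C4b* and *Serping1* fell in the fourth of 5 GC bins, with a median of -0.43, and lay at -2.62, -1.40 and -1.14 in untreated 2, while *Cfb*, in the same bin, lay at 0.66. In the bin lowest in GC *C3ar1* lay at 0.53 but *Cd55* at -0.43, and *Cd59a*, in the second bin with a median of 0.19, lay at -0.70. With GC content and length corrected for, the log2 fold change was 1.39 for *C3*, 1.10 for *C4b* and 1.58 for *Serping1*, and 0.91 for *C4b* with the replicate block added. The part of GC content in these values beyond that correction was not tested. Untreated 1, which showed low *C3*, *C4b* and *Serping1* as well, had a mean distance of 0.755 to the other libraries, the highest after untreated 2. Its own difference along GC content was not examined.

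Over 10454 tested genes with a mean of at least 5 CPM over the 6 libraries, leaving out the 9 genes and names of gene models and clones, the genes most like *C3* over the 6 libraries were *Fbn2* (a fibrillin of elastic matrix), *S1pr3* (a receptor for sphingosine 1-phosphate) and *Rarres2* (which codes for chemerin), at root mean square differences of 0.52, 0.55 and 0.55. *Rarres2* had 10.5, 24.1 and 31.5 CPM in treated 1, 2 and 3, against 2.57, 2.90 and 11.3 CPM in untreated 1, 2 and 3. Those most like *Serping1* were *Cthrc1*, *Sulf1* and *Il33*, at 0.19, 0.20 and 0.25. The genes nearest to *C3ar1* were *Ica1*, *Ctsd* (the lysosomal protease cathepsin D) and *Birc3*, at 0.12, 0.15 and 0.15. Genes that vary less lie closer on this measure.

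To set levels of different genes side by side, CPM were divided by the length of the longest transcript in kb. In treated tumours *Serping1* was highest, at 25.6 ± 13.6 CPM per kb (SD, n = 3), followed by *C3* (15.9 ± 10.3), *C3ar1* (14.4 ± 5.39), *C5ar1* (10.3 ± 3.17), *Cfb* (8.41 ± 4.44), *C4b* (8.04 ± 5.21), *C1ra* (5.23 ± 2.77), *Cd59a* (1.61 ± 0.714) and *Cd55* (1.12 ± 0.906). Each neighbour in this order overlapped the next in its 3 values. In untreated tumours *C3ar1* came first, at 16.6 ± 3.46 CPM per kb (SD, n = 3), followed by *Serping1* (8.32 ± 4.49), *C5ar1* (8.02 ± 2.80), *Cfb* (7.98 ± 3.03), *C3* (5.39 ± 6.87), *C1ra* (3.17 ± 0.818), *C4b* (2.80 ± 1.41), *Cd59a* (0.799 ± 0.638) and *Cd55* (0.36 ± 0.265). There, *C3ar1* stood clear of *Serping1*, and *C4b* of *Cd59a*; the other neighbours overlapped. *Cd55* and *Cd59a* were thus the rarest of the 9 transcripts per length in both groups, while *Cr1l*, another membrane inhibitor, averaged 7.83 ± 0.939 CPM per kb in treated and 9.98 ± 3.01 CPM per kb in untreated tumours (SD, n = 3 each).

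The rest of the complement list held 46 genes, of which 20 had enough counts to be tested, 8 with a higher and 12 with a lower fitted level in treated tumours, and 10 had no count in any library. At an unadjusted p under 0.05, 0 were higher and 3 lower, and none passed adjustment in edgeR's test; their median log2 fold change was -0.13. The 3 were the C1q chains, which recognise bound antibody and are known from macrophages: *C1qa* averaged 78.6 ± 25.4 CPM in treated and 197 ± 84.8 CPM in untreated tumours, *C1qb* 54.0 ± 15.4 CPM in treated tumours and 133 ± 55.8 CPM in untreated tumours, and *C1qc* 46.6 ± 16.0 CPM in treated tumours and 126 ± 50.3 CPM in untreated tumours (SD, n = 3 each). Their log2 fold changes were -1.32, -1.30 and -1.43, with an adjusted p of 0.592 each in edgeR's test, opposite in sign to those of *C1ra* and *C4b*. The 4 other tested proteases of that route lie outside the naming rule and were picked after their values were seen. *C1s1*, *C1s2* and *C2* had log2 fold changes of 0.63, 0.61 and 0.73 and *C1rl* one of -0.79, with unadjusted p-values of 0.258, 0.301, 0.279 and 0.184 in edgeR's test.

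Of the alternative pathway, *Cfp* (properdin, which stabilises the C3-cutting enzyme) averaged 31.4 ± 7.00 CPM in treated and 41.6 ± 20.2 CPM in untreated tumours (SD, n = 3 each), with a log2 fold change of -0.40 and an adjusted p of 0.727 in edgeR's test. *Cfd* (factor D, known from fat cells as adipsin) was too rare to test, at 0.179, 0 and 0.124 CPM in treated 1, 2 and 3, against 1.51, 2.45 and 0.491 CPM in untreated 1, 2 and 3. The lectin pathway had 2 tested genes, *Masp1* (a protease) at a log2 fold change of -0.87 and *Fcna* (ficolin A) at 0.20. Of 7 terminal genes none was tested and 4 had no count; *Hc*, which codes for C5, averaged 0.306 ± 0.278 CPM in treated and 0.199 ± 0.227 CPM in untreated tumours, and *C6* averaged 0.749 ± 0.753 CPM in treated tumours and 0.296 ± 0.389 CPM in untreated tumours (SD, n = 3 each). Of further inhibitors, *Clu* (clusterin) and *Cr1l* (Crry, a rodent membrane inhibitor) had log2 fold changes of -0.15 and -0.35. *Cd46* was too rare to test, with 2, 4 and 4 counts in treated 1, 2 and 3, against 8, 6 and 7 counts in untreated 1, 2 and 3. It averaged 0.466 ± 0.097 CPM in treated and 1.14 ± 0.249 CPM in untreated tumours (SD, n = 3 each). Among receptors, *Itgam*, a chain of complement receptor 3, and *Cd93* were most abundant and had log2 fold changes of -0.32 and 0.44.

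**Figure D3:**
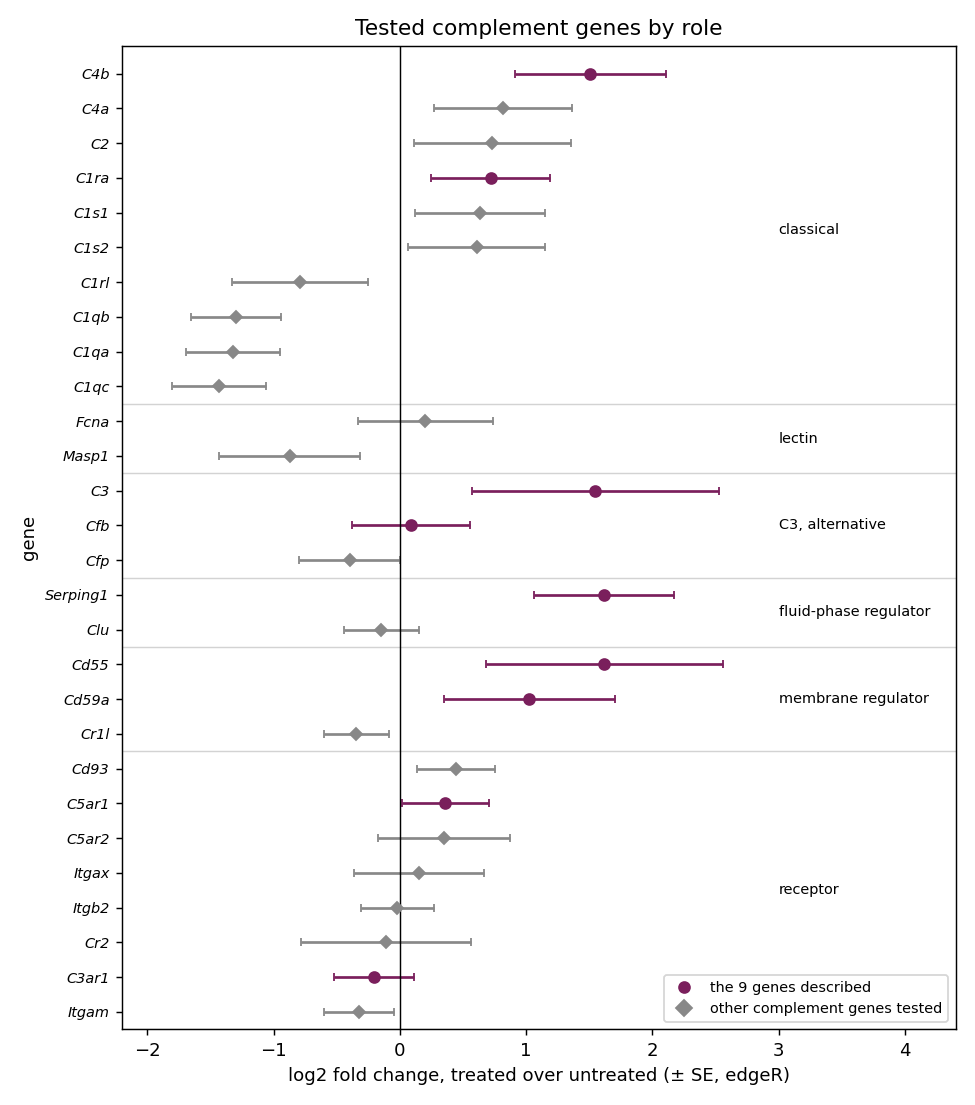
Log2 fold change, treated over untreated, with its standard error from edgeR for the 9 genes described (circles) and other tested complement genes (diamonds), by role. No gene passed adjustment; Serping1, Cd55, C3 and C4b lay farthest above 0 and the 3 C1q chains farthest below.

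Markers of cell types differed between the same libraries. Beside the counts below, 49.9% of all tested genes had a fold change above 0. At an unadjusted p under 0.05 in edgeR's test, 3.32% were higher and 4.85% lower in treated tumours. Neutrophil markers summed to 85.5, 36.0 and 81.9 CPM in treated 1, 2 and 3, against 13.6, 19.4 and 47.0 CPM in untreated 1, 2 and 3; all 5 of the 5 tested were higher in treated tumours, and *Mpo* and *Elane* had no count. Macrophage markers summed to 603, 1175 and 895 CPM in treated 1, 2 and 3, against 908, 2026 and 1299 CPM in untreated 1, 2 and 3, with 3 of 9 higher and 6 lower, 3 of the lower at an unadjusted p under 0.05 in edgeR's test. In each group of 3 the order of the libraries by macrophage markers was that of *C3ar1* and *Cfb*. In treated tumours most of the 9 genes had that order. *C5ar1*, the other receptor gene, had it in neither group, at 17.5, 27.5 and 33.4 CPM in treated 1, 2 and 3, and 14.7, 18.1 and 28.3 CPM in untreated 1, 2 and 3. Keratinocyte markers, from skin, summed to 20.7, 4.35 and 66.3 CPM in treated 1, 2 and 3, against 1184, 593 and 5.89 CPM in untreated 1, 2 and 3. Untreated 1 and 2, with much keratinocyte RNA, had less *C3*, *C4b*, *Serping1*, *C1ra*, *Cd55* and *C5ar1* than untreated 3. *Cd59a* went the other way, at 2.72, 1.12 and 0.491 CPM in untreated 1, 2 and 3. Among untreated tumours *Cfb* and *C3ar1* were highest in untreated 2. Of the 5 keratinocyte markers tested, all 5 were lower in treated tumours, and 3 had an unadjusted p under 0.05 in edgeR's test. Of 7 fibroblast markers, 2 were higher and 5 lower in treated tumours, 2 of the lower at that level, with a median log2 fold change of -0.60. These levels cannot tell cells of the fibrosarcoma line from other fibroblasts. Endothelial markers summed to 123, 156 and 188 CPM in treated 1, 2 and 3, against 86.7, 93.3 and 149 CPM in untreated 1, 2 and 3. Of 6 tested, 5 were higher, 0 of them at an unadjusted p under 0.05 in edgeR's test. Mast cell markers summed to 14.5, 13.1 and 8.33 CPM in treated 1, 2 and 3, against 42.4, 63.4 and 19.6 CPM in untreated 1, 2 and 3, and all 4 of the 4 tested were lower at an unadjusted p under 0.05 in edgeR's test. T cell markers summed to at most 3.23 CPM in treated and 6.35 CPM in untreated tumours. The part of these cells in the complement values was not tested.

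Interferon-gamma and interleukin 6 are known inducers of several complement genes. Of 16 tested interferon-gamma inducible genes, 1 had a higher and 15 a lower fitted level in treated tumours, with a median log2 fold change of -0.45, and at an unadjusted p under 0.05 there were 0 higher and 3 lower. Of 13 tested genes of the interleukin 6 family and the acute phase, 10 were higher and 3 lower, with a median of 0.47, and 3 were higher and 0 lower at that level. None passed adjustment in edgeR's test. Of all tested genes, 49.9% had a fold change above 0, and 3.32% were higher and 4.85% lower at that unadjusted level. Summed levels of the first list were 553, 669 and 550 CPM in treated 1, 2 and 3, against 760, 1227 and 687 CPM in untreated 1, 2 and 3. Those of the second were 610, 702 and 705 CPM in treated 1, 2 and 3, against 567, 389 and 628 CPM in untreated 1, 2 and 3. Any part of either inducer in the complement values was not tested.

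**Figure D4:**
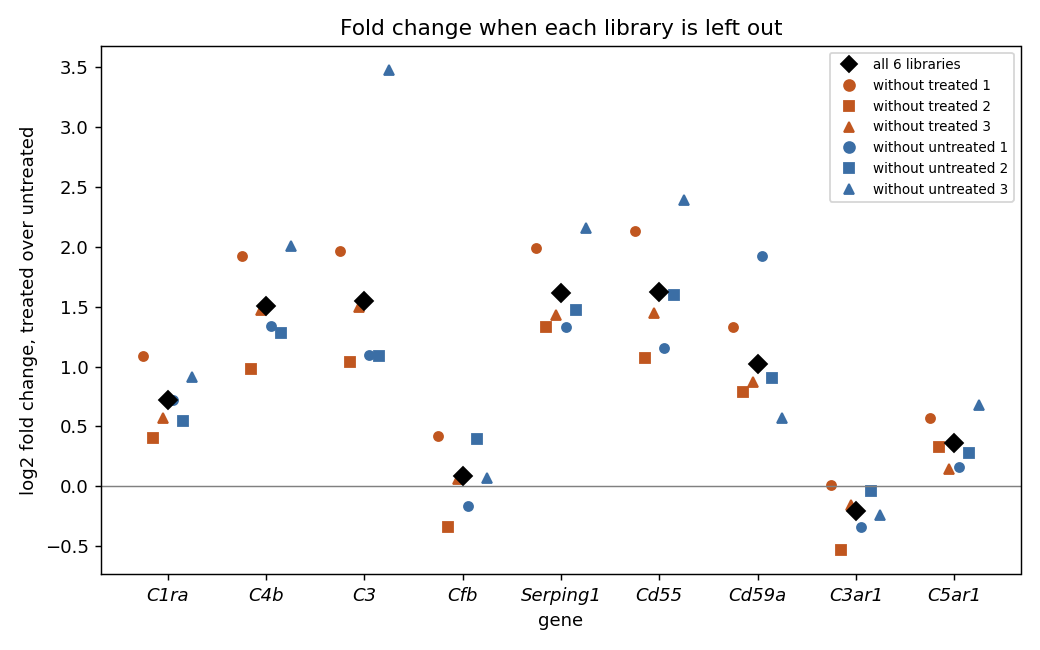
Log2 fold change, treated over untreated, of each gene with all 6 libraries (black diamonds) and with each library left out in turn (coloured symbols). C3 moved most, to 3.48 without untreated 3; Cfb crossed 0 without treated 2 or untreated 1, and C3ar1 without treated 1.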

How the data were processed

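The authors deposited 1 table of raw counts for each library, with a row per gene symbol. Per the labels' protocols, a Trizol extract of total RNA went into a strand-keeping library kit. Per the submitters' processing notes, TopHat (version not given) and the build mm10 were used; how reads were counted, by which annotation and on which strand was not found in those notes, so overlapping genes may share counts.

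With edgeR 4.0.16 (R 4.3.3), filterByExpr at a smallest count of 10 kept 12517 genes. Counts were scaled by TMM and tested across all genes with the quasi-likelihood test (2-sided, Benjamini-Hochberg). An exact permutation test of 3 against 3 cannot go below 0.1 and was not used. CPM use TMM library sizes; log2 CPM use a prior count of 2. The SE is the fold change over the root of F. Lengths, GC content and coordinates are from GENCODE M21 (mm10), and promoters from RefSeq (GRCm38.p6). No 2 libraries agreed within sampling noise (chi-square per gene of 5.64 or more). The steps were tested on simulated counts whose spread between libraries was set lower than in these data. That run checked the steps and the sign of changes, and cannot tell how many changes would be missed at the spread seen here. Alternatives were DESeq2 1.42.0 or its size factors, the upper quartile, total counts, limma-voom (limma 3.58.1), other filters, leaving out each library, the replicate number as a block, a loess correction for GC content and length (span 0.3), alone or with the block, and exon length.

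The 9 genes, the gene lists and the tests were chosen with earlier results of these data known. The rule names all 9 genes; of the other complement genes, those at an unadjusted p under 0.05 and the 2 most abundant per role, except 1 that is counted with its list but not reported here; and the 3 genes most like *C3*, *Serping1* and *C3ar1*.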

Additional observations from a re-analysis of the deposited data

How the results depend on the processing

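No alternative called any of the 9 genes; their adjusted p ranged from 0.19 to 0.995. Over all genes edgeR called 0, DESeq2 called 46, and leaving out a library gave 0 to 4. At an unadjusted p under 0.05 edgeR gave 1023 genes, against 1579 with the GC and length correction, 1612 with the replicate block added to it, and 313 (without treated 3) to 2362 (without untreated 2) when a library was left out. For the 9 genes that count, 2, was 1 with limma-voom, 1 with the replicate block, 1 with the GC and length correction, 4 with both, and 0 to 4 without a library. *Cfb* changed sign with the replicate block (-0.0056), the correction (-0.061) and both (-0.11), and ranged from -0.34 to 0.42 without a library; *C3ar1* ranged from -0.53 to 0.011. The other 7 genes had a fold change above 0 in each alternative that tested them (*Cd55* and *Cd59a* were not tested at a mean of 5 CPM). The cause of these shifts was not tested.

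The labels do not say whether the replicate numbers pair the libraries. Deviations from the group means correlated at -0.18, -0.11 and 0.09 for numbers 1, 2 and 3, and no library correlated best with its own number. With 3 libraries per group, whose deviations sum to 0, and untreated 2 far from the rest, these correlations cannot settle whether the libraries are paired. Dividing by exon union length in place of the longest transcript moved no level per kb beyond its spread over the libraries, but put *Serping1*, at 6.33 CPM per kb in untreated tumours, after *C5ar1* (7.92) and *Cfb* (7.77). Depth limits *Cd55* and *Cd59a*, with as few as 2 and 4 counts in a library.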
